A study of Mus musculus with 234 samples.

Results

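The genes followed here are the large-subunit ribosomal protein gene *Rpl3* with its muscle paralog *Rpl3l*, the elongation factor genes *Eef1a1* and *Eef1a2*, and *Eef1b2*, *Eef1g* and *Eef2*, 7 of 55538 features counted in single mouse cardiomyocytes (CMs). They were taken by name, with results from these same cells already known. Their levels are therefore given as a description, and the calls that fits across all genes made on them are printed without support being drawn from them. CMs were picked by hand from Langendorff-dissociated hearts of 5 mice, and the mRNA of each of 234 cells was read with SMART-seq2, a full-length protocol without molecular identifiers. Homozygous PGKcre:BAG3P209L mice M25 (21 bright and 18 dim CMs) and M116 (59 bright and 50 dim CMs) carried human BAG3 with the P209L change fused to eGFP, driven by the ubiquitous CAG promoter in Rosa26 once PGK-Cre had removed a STOP cassette from either or both alleles. Their cells were split by eGFP brightness. CMs of the heterozygous PGKcre:BAG3P209L mouse M72 were labelled bright (27) and dim (26), and control CMs came from mice M26 (24) and M73 (9). The labels give the controls as C57BL/6, whereas the study's methods describe a mixed background and controls that are wild-type siblings or siblings with only Cre or only the uncut transgene. The mice the study describes were 2 weeks old, and the age of mouse M72 is not given in the sources used here.

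Ribosomes build proteins in a repeated cycle. *Eef1a1* or *Eef1a2* encodes the factor that brings charged tRNAs to the ribosome, *Eef1b2* and *Eef1g* encode subunits of the exchange factor that reloads it with GTP, and *Eef2* encodes the factor that moves the ribosome along by a codon. Rpl3 sits near the peptidyl transferase centre. *Rpl3l* is expressed almost only in heart and skeletal muscle and its protein can take the place of Rpl3 in the ribosome, while *Eef1a2* takes over from *Eef1a1* in muscle and neurons after birth. Young hearts can therefore express both paralogs of each pair.

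The stretches of coding sequence below show why reads of the paralogs can be told apart although the proteins are close relatives. Each holds the same positions of the coding sequence in both paralogs (126 to 185 for the Rpl3 pair and 286 to 345 for the Eef1a pair, counted from the start codon, GENCODE M21 transcripts). Capitals mark the bases that differ, 10 in the first pair and 8 in the second.
Rpl3: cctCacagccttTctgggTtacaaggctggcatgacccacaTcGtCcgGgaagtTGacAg
Rpl3l: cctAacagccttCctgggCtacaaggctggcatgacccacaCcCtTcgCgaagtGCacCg
Eef1a1: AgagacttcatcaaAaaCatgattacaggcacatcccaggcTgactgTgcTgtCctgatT
Eef1a2: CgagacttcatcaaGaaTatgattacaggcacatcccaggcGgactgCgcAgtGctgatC

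Over the whole coding sequence the aligned bases were 73.8% identical for *Rpl3* and *Rpl3l* and 80.1% identical for *Eef1a1* and *Eef1a2*, and the longest identical runs spanned 22 and 23 bases. No stretch of 75 bases, the length of a read, was shared within either pair. Processed copies elsewhere in the genome are a different matter. Of the 75-base stretches of *Rpl3*, 83.2% also occurred in transcripts of 8 other genes, and the corresponding figures were 41.7% with 14 genes for *Eef1a1*, 56.5% with 4 genes for *Eef1g*, 2.95% for *Eef1b2* and 2.59% for *Eef2*. *Rpl3l* and *Eef1a2* shared 0 stretches. STAR's gene counts leave out reads that map to several places, so *Rpl3*, *Eef1a1* and *Eef1g* can be counted too low in every cell. A level within a pair is uncertain for this reason, whereas a constant loss cancels in the fold change of the ratio between 2 groups.

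The bases upstream of the annotated start are shown for the genes of the pairs whose levels differed most (250 bases, RefSeq, GRCm38.p6). Capitals mark the motifs GGGCGG (or CCGCCC on the other strand) and CAGCTG, which were searched on both strands together with TATAAA and CATTCC. *Rpl3l* (the first of 2 annotated starts, chr17:24727576-24727825, plus strand) held a single CAGCTG, and its second start held none of the motifs. *Eef1a1* (chr9:78481725-78481974, minus strand) held 2 GGGCGG, and *Eef1a2* (chr2:181157016-181157265, minus strand) held 1.
Rpl3l: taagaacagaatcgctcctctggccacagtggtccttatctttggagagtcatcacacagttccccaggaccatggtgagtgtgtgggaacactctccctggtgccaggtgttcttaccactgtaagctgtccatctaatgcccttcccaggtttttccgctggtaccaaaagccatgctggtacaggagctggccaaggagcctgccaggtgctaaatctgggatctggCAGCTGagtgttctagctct
Eef1a1: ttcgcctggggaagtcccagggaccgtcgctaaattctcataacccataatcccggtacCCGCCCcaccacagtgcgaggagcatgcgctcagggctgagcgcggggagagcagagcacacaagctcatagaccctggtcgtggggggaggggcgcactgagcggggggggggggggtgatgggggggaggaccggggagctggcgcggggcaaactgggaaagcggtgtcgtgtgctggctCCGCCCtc
Eef1a2: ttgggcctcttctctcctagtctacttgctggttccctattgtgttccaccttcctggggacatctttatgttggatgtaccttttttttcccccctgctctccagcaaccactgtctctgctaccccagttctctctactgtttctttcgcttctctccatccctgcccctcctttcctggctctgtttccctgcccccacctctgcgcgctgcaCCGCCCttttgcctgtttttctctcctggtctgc

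Among 32851 promoters of this length, 32.7% held GGGCGG, 13.0% CAGCTG, 12.6% CATTCC and 12.4% TATAAA, so each of the matches found here is a frequent one. A match describes the letters only. *Rpl3* and *Eef1g* had no entry.

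Adding up the cells of a mouse and brightness class gave 8 sums with totals from 4096609 counts (mouse M73) to 40508124 counts (bright CMs of mouse M116). The plate names put mice M25 and M26 in one series and mice M72, M73 and M116 in another, so each series holds a control and a homozygous mouse. Mice M25 and M26 shared a plate. Mouse M73 shared a plate with mouse M72 but not with mouse M116, so plate and genotype cannot be told apart between mice M116 and M73. All 8 CM markers had counts in every sum, and they summed to 75336 to 83166 CPM in homozygous CMs against 86722 and 93440 CPM in control CMs. Mouse M73 stood apart: only 9 cells were picked, and 6 of them held at least 100 counts per 1000000 counts (CPM) of fibroblast, endothelial, immune, mural or Schwann markers. Its cells had a median of 567 CPM of these markers against 3.73 CPM in mouse M26, and 21.9% of its counts were mitochondrial against 9.54% to 17.4% in the other sums. Fibroblast markers reached 2537 CPM in the bright CMs of mouse M25 and 33.4 to 514 CPM elsewhere. A single cell among those bright CMs held 50111 CPM of the non-myocyte markers together. It gave 3466 of the 19009 *Eef1a1* counts and 528 of the 4800 *Rpl3* counts of its sum, and 0 counts of *Rpl3l* and *Eef1a2*. Endothelial markers summed to 242 and 319 CPM in control, 476 and 353 CPM in homozygous dim and 172 and 162 CPM in homozygous bright CMs, without overlap. Mural markers summed to 25.9 and 30.6 CPM in bright CMs against 68.3 and 100.1 CPM in control CMs, and immune markers to 66.3 and 77.6 CPM in homozygous dim CMs against 6.43 and 11.96 CPM. Immediate-early genes, which dissociation can induce, summed to 309 and 390 CPM in control CMs and to 425 to 1152 CPM in homozygous CMs. The part of these differences in the results below was not tested. Values without marker-holding cells are given beside the main ones.

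The transgene feature hBAG gave a check of the labels. It lay at 0.408 and 0.488 CPM in control CMs, at 10.7 (mouse M25) and 99.6 CPM (mouse M116) in homozygous dim CMs, and at 294 and 233 CPM in homozygous bright CMs. In mouse M72 the order was the reverse of the labels, with 105 CPM in the cells labelled bright and 251 CPM in those labelled dim. BAG-eGFP gave the same order there, 62.1 against 208 CPM. Brightness in mouse M72 is therefore given only as labelled.

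*Rpl3l* made up a smaller part of the *Rpl3* pair in homozygous CMs. In control CMs it held 44.9% of the *Rpl3* and *Rpl3l* counts in mouse M26 (2491 of 5542, exact Clopper-Pearson 95% interval 43.6 to 46.3%) and 49.1% in mouse M73 (451 of 918, 45.9 to 52.4%). In homozygous dim CMs the share was 21.8% in mouse M25 (20.6 to 22.9%) and 22.7% in mouse M116 (21.9 to 23.6%). In homozygous bright CMs it was 10.9% in mouse M25 (10.1 to 11.8%) and 8.83% in mouse M116 (8.33 to 9.36%). The 3 groups thus followed the order control, dim, bright without overlap between mice. The intervals cover counting error only and are far narrower than the spread between cells.

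The group means were 47.0 ± 2.96% in control CMs, 22.2 ± 0.669% in homozygous dim CMs and 9.88 ± 1.48% in homozygous bright CMs (SD, n = 2 mice each). The difference in share was -37.2 percentage points for bright against control CMs, -24.8 points for dim against control CMs and -12.4 points for bright against dim CMs. With 2 mice in each group an exact permutation test cannot go below p = 0.333. Within the plate series, the difference was -34.02 points between bright CMs of mouse M25 and control mouse M26 and -40.3 points between those of mouse M116 and control mouse M73. Within a mouse, bright CMs differed from dim CMs by -10.8 points in mouse M25 and by -13.9 points in mouse M116.

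**Figure D1:**
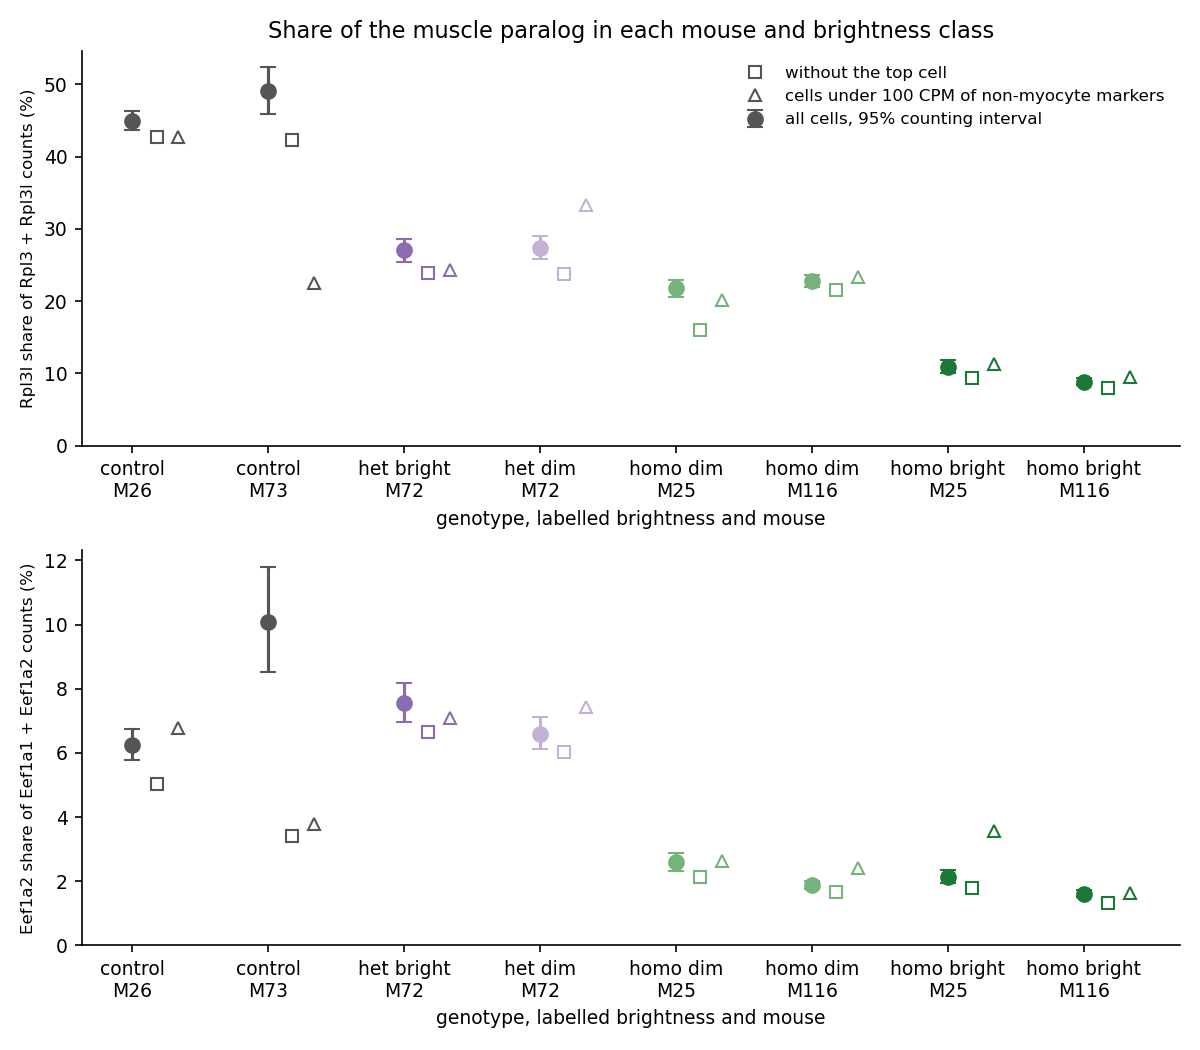
Share of *Rpl3l* (top) and *Eef1a2* (bottom) in the counts of its pair, in percent, for each genotype, labelled brightness and mouse. Filled circles are all cells with the 95% counting interval, open squares leave out the cell with most counts of *Rpl3l* or *Eef1a2*, and open triangles keep cells under 100 CPM of non-myocyte markers. The *Rpl3l* share runs from 49.1% in control mouse M73 to 8.83% in the bright CMs of mouse M116, and the triangle of mouse M73 (22.6%, 3 cells) lies among the homozygous dim CMs.

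Expressed as a ratio, *Rpl3* counts were 1.22 and 1.04 times those of *Rpl3l* in control CMs, 3.59 and 3.40 times in homozygous dim CMs, and 8.15 and 10.3 times in homozygous bright CMs. The ratio was 6.65-fold (mouse M25) and 9.97-fold (mouse M116) higher in bright CMs than in the control mouse of the same plate series, and 2.93-fold and 3.28-fold higher in dim CMs. Bright CMs exceeded dim CMs of the same mouse 2.27-fold and 3.03-fold. In cells under 100 CPM of non-myocyte markers, the folds in mouse M116 over mouse M73 were 2.76 for bright and 0.958 for dim CMs, so that the dim difference was lost there, and those in mouse M25 over mouse M26 were 5.81 and 2.96. These folds do not depend on gene length or on a constant loss of reads. *Rpl3* counts were the larger in every sum, so no group had more *Rpl3l* than *Rpl3*, and the pair shifted without a change of the leading paralog. If each count is divided by the number of 75-base stretches that are unique to its gene, the control shares become 11.8% and 13.7% and those of bright CMs 1.98% and 1.57%.

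The fitted levels of the *Rpl3* pair differed more for *Rpl3l* than for *Rpl3*. *Rpl3l* lay at 139 and 131 normalized CPM (CPM scaled with TMM factors over the 8 sums) in control CMs, at 57.0 and 61.0 in homozygous dim CMs and at 29.7 and 23.4 in homozygous bright CMs. *Rpl3* lay at 170 and 135 normalized CPM in control CMs, at 205 and 207 in dim CMs and at 242 in the bright CMs of both mice. These levels ran in opposite order over the 3 groups, and no control mouse overlapped with a homozygous one for either gene. Their summed level was 309 and 266 normalized CPM in control CMs, 262 and 268 in dim CMs, and 272 and 265 in bright CMs, so that the groups overlapped in the total of the pair.

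The fitted log2 fold change of bright over control CMs was -2.37 (SE 0.38), or 5.16-fold lower, for *Rpl3l* and 0.64 (SE 0.30), or 1.56-fold higher, for *Rpl3*. For dim over control CMs it was -1.21 (SE 0.35) for *Rpl3l* and 0.41 (SE 0.32) for *Rpl3*, and for bright over dim CMs -1.16 (SE 0.28) and 0.22 (SE 0.19). *Rpl3l* had a negative value and *Rpl3* a positive one in each of the 11 alternative fits of each comparison. In cells under 100 CPM of non-myocyte markers the values of *Rpl3* were 0.30 (SE 0.47) for bright and 0.12 (SE 0.48) for dim over control CMs, and those of *Rpl3l* were -1.81 (SE 0.76) and -0.75 (SE 0.70). Per kilobase of transcript, *Rpl3* lay at 100 to 126 and *Rpl3l* at 95.1 to 101 normalized CPM in control CMs, against 179 in both mice for *Rpl3* and 17.0 to 21.6 for *Rpl3l* in bright CMs.

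Single cells varied widely. Among cells with at least 20 counts of the pair, the *Rpl3l* share ran from 1.29% to 89.2% in the 20 such cells of mouse M26 and from 0% to 86.6% in the 8 of mouse M73, with medians of 40.2% and 37.6%. Dim CMs had medians of 9.58% (18 cells, mouse M25) and 21.6% (48 cells, mouse M116), and bright CMs 6.09% (20 cells) and 2.38% (53 cells). The medians kept control above dim above bright CMs within each plate series. *Rpl3l* outnumbered *Rpl3* in 11 of 28 control CMs, in 10 of 66 homozygous dim CMs and in 1 of 73 homozygous bright CMs. No *Rpl3l* count was found in 1 of 28, 8 of 66 and 23 of 73 of these cells, respectively, and cells of 1 mouse are not replicates of its genotype.

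**Figure D2:**
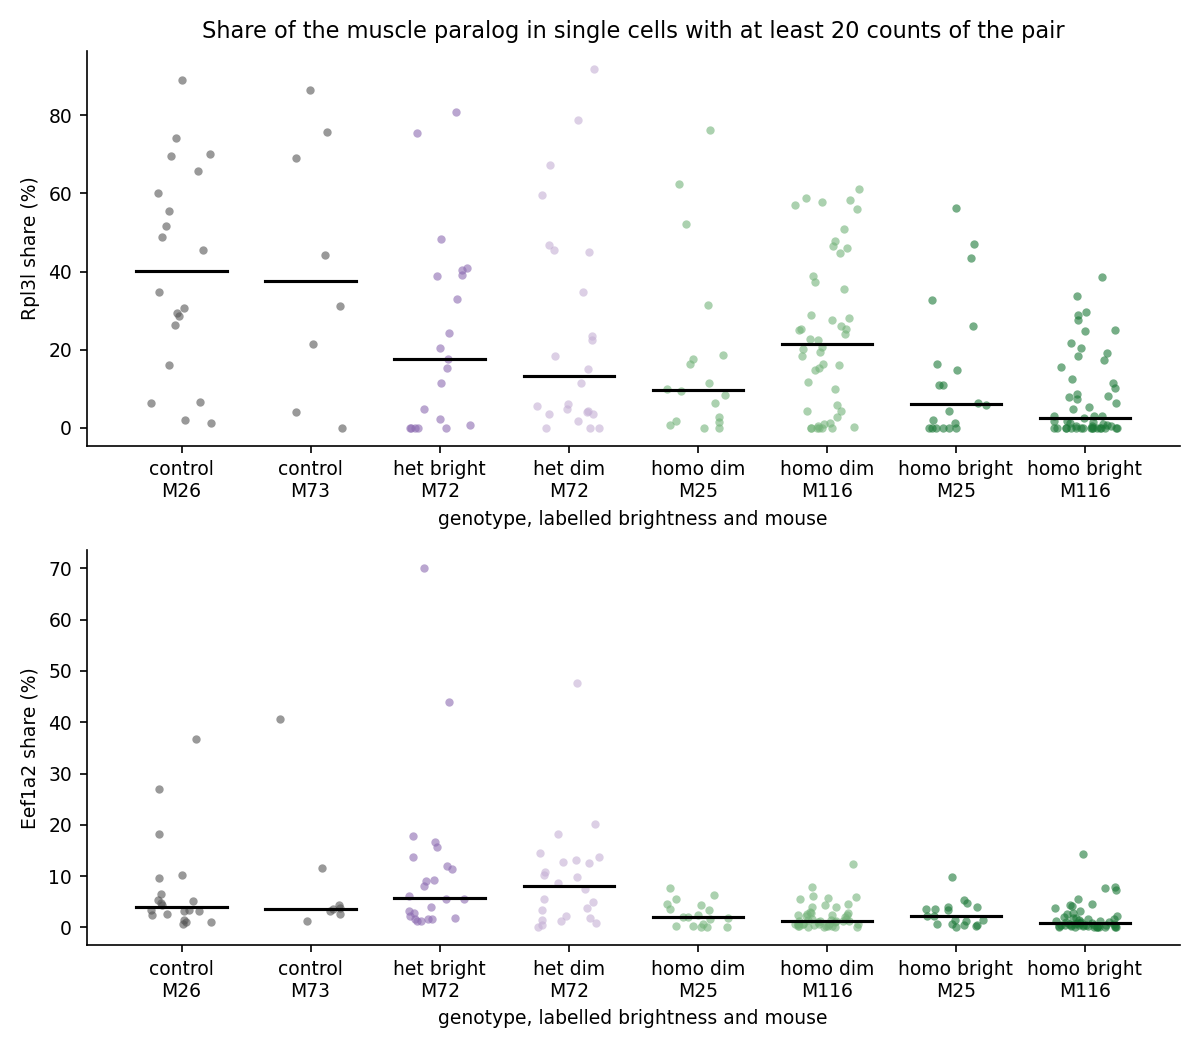
*Rpl3l* (top) and *Eef1a2* (bottom) share in percent of the pair's counts in single cells with at least 20 counts of the pair, by genotype, labelled brightness and mouse. Each point is a cell and each bar the median. *Rpl3l* medians lie at 40.2% and 37.6% in control CMs and at 6.09% and 2.38% in homozygous bright CMs, and cells of all groups spread over a wide range.

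The value of mouse M73 rests on few cells. Only 3 of its 9 cells were under 100 CPM of non-myocyte markers, and in these *Rpl3l* held 22.6% of 288 counts (17.9 to 27.8%), which overlaps with the homozygous dim CMs filtered the same way (20.1% and 23.3%). The share of mouse M26 was 42.7% after this filter, and those of bright CMs were 11.4% and 9.55%, still below each control mouse. With the single cell richest in *Rpl3l* left out of each sum, control CMs lay at 42.8% and 42.3%, dim CMs at 16.0% and 21.5%, and bright CMs at 9.34% and 8.0%. In dim CMs of mouse M25 that cell held 35.6% of the *Rpl3l* counts, and in control mouse M73 it held 35.7%.

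*Eef1a2* was the minor paralog of its pair in each sum and made up less of it in homozygous CMs. It held 6.25% of the *Eef1a1* and *Eef1a2* counts in control mouse M26 (590 of 9445, 5.77 to 6.75%) and 10.1% in control mouse M73 (137 of 1361, 8.52 to 11.8%). In homozygous dim CMs the share was 2.59% (mouse M25, 2.31 to 2.89%) and 1.88% (mouse M116, 1.75 to 2.02%), and in bright CMs 2.14% (1.94 to 2.36%) and 1.61% (1.5 to 1.72%). Both homozygous classes lay below both control mice, whereas bright and dim CMs overlapped. The group means were 8.16 ± 2.7% in control, 2.24 ± 0.501% in dim and 1.87 ± 0.38% in bright CMs (SD, n = 2 mice each). The difference was -6.28 points for bright against control CMs, -5.92 points for dim against control CMs and -0.36 points for bright against dim CMs, the last one less than the spread between the mice.

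The control value of mouse M73 was made by 1 cell, which held 99 of its 137 *Eef1a2* counts. Without it the share of mouse M73 was 3.40%, and with the top cell left out of each sum the share was 5.03% in mouse M26, 2.15% and 1.66% in dim CMs, and 1.79% and 1.32% in bright CMs. The order of the groups then held with a smaller distance, a difference of -2.66 points for bright against control CMs. In the cells under 100 CPM of non-myocyte markers, mouse M73 lay at 3.80% (12 of 316 counts, 1.98 to 6.54%) and the bright CMs of mouse M25 at 3.56% (3.18 to 3.97%), a difference within the counting interval. Cell medians were 3.93% and 3.67% in control CMs, 2.02% and 1.27% in dim CMs and 2.14% and 0.769% in bright CMs.

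Over all cells the levels of both genes of this pair were separated between control and homozygous sums, although edgeR with the count filter called neither, and for *Eef1a2* the separation rested on 1 cell. *Eef1a1* lay at 494 and 355 normalized CPM in control CMs, at 610 (mouse M25) and 1066 (mouse M116) in homozygous dim CMs, and at 958 and 1106 in homozygous bright CMs. *Eef1a2* lay at 32.9 and 39.7 normalized CPM in control CMs, at 16.2 and 20.5 in dim CMs and at 21.0 and 18.1 in bright CMs. Both genes overlapped between bright and dim CMs. Without the cell richest in *Eef1a2* in each sum, *Eef1a2* lay at 24.5 CPM in mouse M26 and at 10.6 CPM in mouse M73, the latter below the 13.7 to 19.8 CPM of the homozygous sums, whereas *Eef1a1* lay at 463 and 299.9 CPM in control CMs and at 623 to 1238 CPM in homozygous CMs. The summed level of the pair was 527 and 395 normalized CPM in control CMs against 979 and 1124 in bright CMs, without overlap between the groups.

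The fitted log2 fold change of bright over control CMs was 1.26 (SE 0.29), or 2.40-fold higher, for *Eef1a1* and -0.92 (SE 0.56), or 1.89-fold lower, for *Eef1a2*. For dim over control CMs it was 0.96 (SE 0.38) and -1.0 (SE 0.58), and for bright over dim CMs 0.29 (SE 0.30) and 0.08 (SE 0.38). Without the dim CMs of mouse M116 the values of *Eef1a1* were 0.50 for dim over control and 0.76 for bright over dim CMs, and without those of mouse M25 they were 1.36 and -0.05. In cells under 100 CPM of non-myocyte markers the value of *Eef1a2* for bright over control CMs was 0.08 (SE 1.16), so that its direction was lost, whereas that of *Eef1a1* was 1.40 (SE 0.44). The *Eef1a1* to *Eef1a2* ratio was 3.04-fold (mouse M25) and 6.85-fold (mouse M116) higher in bright CMs than in the control mouse of the same plate series, and 1.22-fold and 1.17-fold higher than in dim CMs of the same mouse. Without the top cell of each sum the folds over control were 2.90 and 2.63, and in cells under the marker limit 1.97 and 2.38. In those cells bright CMs of mouse M25 had 0.736 times and those of mouse M116 1.48 times the ratio of their dim CMs. Per kilobase, *Eef1a1* lay at 198 to 275 and *Eef1a2* at 15.8 to 19.1 normalized CPM in control CMs.

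The partners of the elongation cycle had small fitted differences from control CMs over all cells, although that of *Eef2* depended on the control mouse. *Eef1b2* lay at 134 and 146 normalized CPM in control CMs, at 110 and 120 in dim CMs and at 110 and 130 in bright CMs. The control mice lay above the homozygous CMs by a small margin, with a log2 fold change of -0.25 (SE 0.33) for bright over control CMs. In cells under the marker limit it was -0.85 (SE 0.57) for bright and -0.77 (SE 0.57) for dim over control CMs. *Eef1g* lay at 153 and 108 in control CMs, at 128 and 108 in dim CMs and at 149 and 114 in bright CMs, so that the groups overlapped and the log2 fold change was -0.01 (SE 0.36). *Eef2* lay at 571 and 381 in control CMs, at 536 and 599 in dim CMs and at 562 and 604 in bright CMs, which overlap as well, with a log2 fold change of 0.28 (SE 0.30). Both classes of mouse M116 lay above mouse M73, and both of mouse M25 slightly below mouse M26. The *Eef2* log2 fold change was 0.58 without control mouse M26 and 0.04 without control mouse M73. Scaling by library size alone moved the median log2 fold change of all genes for bright over control CMs from 0.11 to 0.41 and made the values of *Eef1b2* and *Eef1g* positive.

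**Figure D3:**
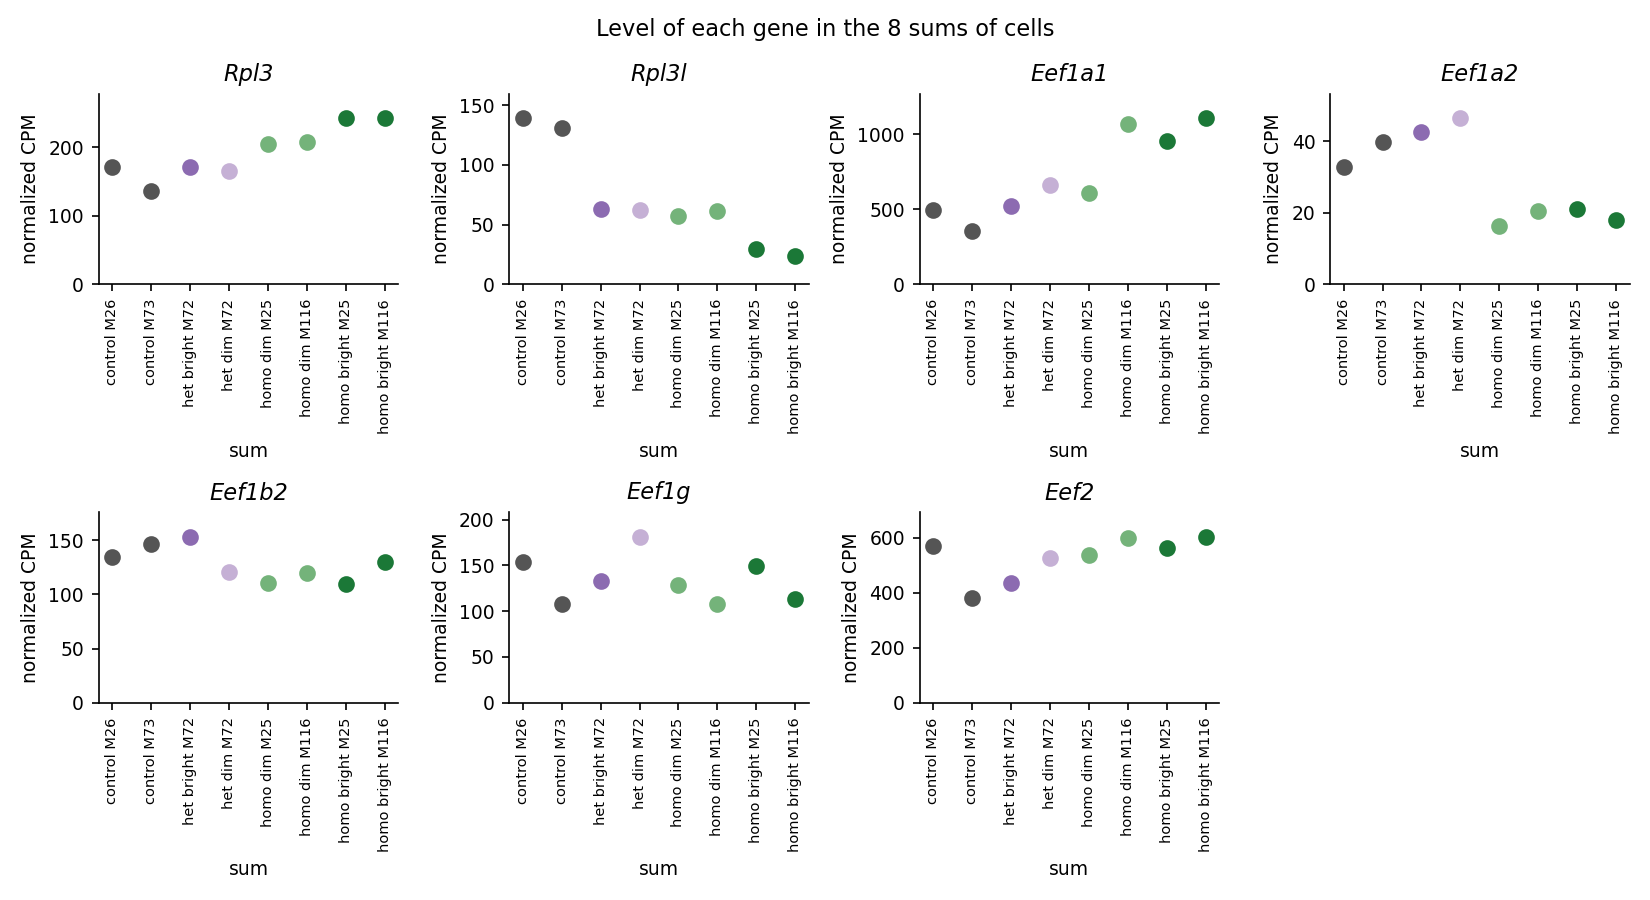
Level of each of the 7 genes in normalized CPM (linear axes from 0) in the 8 sums of cells, 1 point per sum. *Rpl3l* lies highest in the control mice (139 and 131) and lowest in homozygous bright CMs (29.7 and 23.4), *Eef1a1* reaches 1106 in bright CMs of mouse M116, and *Eef1b2*, *Eef1g* and *Eef2* stay within narrower ranges.

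**Figure D4:**
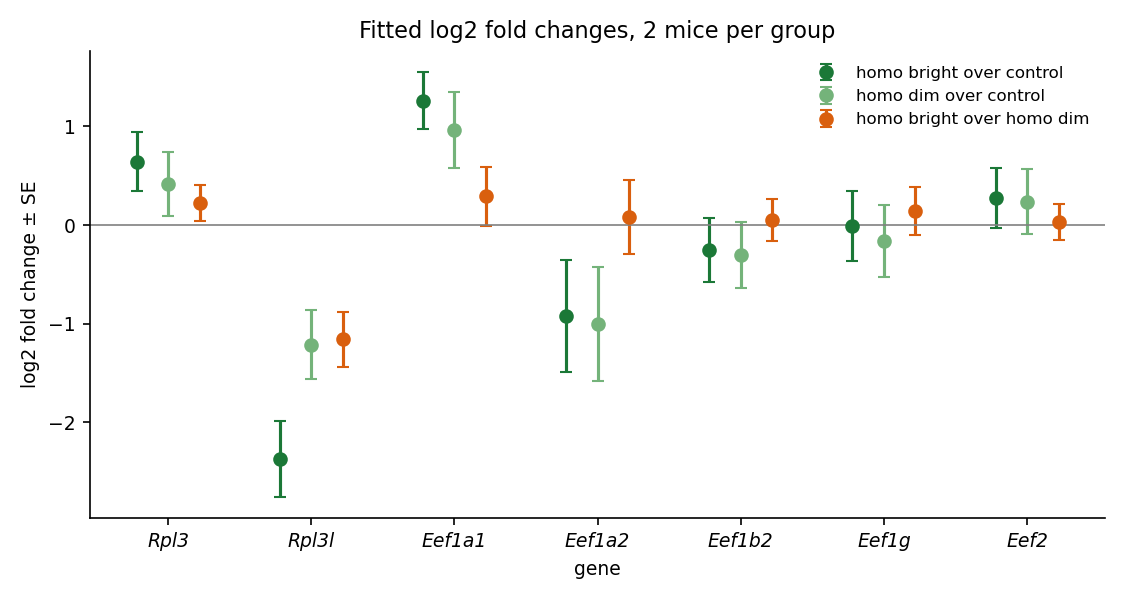
Fitted log2 fold change of each gene with its standard error for homozygous bright over control, homozygous dim over control and homozygous bright over dim CMs, from edgeR with 2 mice per group. *Rpl3l* lies at -2.37, -1.21 and -1.16, and for the other genes bright over dim lies between 0.03 and 0.29.

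With an adjusted p threshold of 0.05, edgeR called 0 of the 7 genes in each of the 3 comparisons. Without a count filter it called *Rpl3l* and *Eef1a1* for bright against control CMs, among 163 of 20705 genes (0.787%). With the filter it called, over all genes, 2 of 12203 (0.0164%) for bright against control CMs, both of them transgene features, 0 of 12195 (0%) for dim against control CMs and 0 of 13439 (0%) for bright against dim CMs. At an unadjusted p under 0.05 it listed 799, 759 and 554 genes. DESeq2 called 106 (0.869%), 55 and 89 genes, and *Rpl3l* was the only one of the 7 among them, for bright against control CMs. For bright against control CMs, the level was higher in each bright than in each control sum for 2 of the 7 genes (*Rpl3* and *Eef1a1*) and for 24.3% of all genes tested, and lower for 3 (*Rpl3l*, *Eef1a2* and *Eef1b2*) and for 14.8%. For dim against control CMs the same 2 and 3 genes were separated, against 23.8% of all genes above and 14.2% below. For bright against dim CMs *Rpl3* lay above and *Rpl3l* below, against 15.1% and 16% of all genes. The genes were chosen on these contrasts, and nothing is read from these counts.

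In the heterozygous mouse M72 the *Rpl3l* share was intermediate over all cells, and the *Eef1a2* share lay between the control mice. *Rpl3l* held 27.0% of its pair (25.5 to 28.6%) in the cells labelled bright and 27.4% (25.8 to 28.9%) in those labelled dim. Both values lay between the control and the homozygous dim CMs and did not differ beyond counting error from each other. In cells under 100 CPM of non-myocyte markers they did, with 24.2% (22.4 to 26.1%) in the 19 cells labelled bright and 33.3% (31.5 to 35.3%) in the 19 labelled dim. Both were then above the 22.6% of control mouse M73 (3 cells, 17.9 to 27.8%), though that interval holds the 24.2%. The medians of mouse M72 over cells with at least 20 counts were 17.6% and 13.2%, below the 21.6% of the dim CMs of mouse M116. *Rpl3l* was at 63.2 and 62.0 and *Rpl3* at 171 and 165 normalized CPM. *Eef1a2* held 7.56% (6.97 to 8.19%) and 6.60% (6.11 to 7.10%), between the control mice, with *Eef1a2* at 42.7 and 46.5 and *Eef1a1* at 522 and 658 normalized CPM. Without the top cell of each sum its shares were 6.66% and 6.02%, and in cells under the marker limit 7.09% and 7.44%, in both cases above both control mice. Against mouse M73 over all cells, the *Eef1a1* to *Eef1a2* ratio was 1.37-fold higher in the cells labelled bright and 1.59-fold higher in those labelled dim, but 0.494 and 0.55 times as high without the top cell of each sum. Within the plate series it shared with control mouse M73, the *Rpl3* to *Rpl3l* ratio was 2.61-fold higher than in that mouse in the cells labelled bright and 2.56-fold higher in those labelled dim, and in cells under the marker limit it was 0.911 and 0.583 times as high. With 1 mouse there is no replicate check. The control sums, with the least hBAG, had the highest *Rpl3l* shares, the homozygous bright CMs, at 294 and 233 CPM, the lowest, and in both homozygous mice the class with more hBAG had the lower share. Dim CMs of mice M25 and M116 had 21.8% and 22.7% at 10.7 and 99.6 CPM, or 16.0% and 21.5% without the top cell, and the cells of mouse M72 labelled dim had 27.4% at 251 CPM. From cell to cell, the rank correlation of the *Rpl3l* share with the hBAG level was -0.32 in bright and -0.33 in dim CMs of mouse M25. It was -0.015 and 0.12 in those of mouse M116, and -0.19 and 0.12 in the cells of mouse M72 labelled bright and dim. A relation to hBAG was not tested.

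From cell to cell within a sum, *Rpl3* and *Rpl3l* ran weakly in opposite directions. Over 219 cells with at least 1000 genes, after the mean of each sum was subtracted from log2(CPM + 10), *Rpl3* and *Rpl3l* had a Pearson correlation of -0.21, which ranked *Rpl3* 7925 of 7928 genes by likeness to *Rpl3l*. Over the cells with at least 20 counts of each pair, their rank correlation was below 0 in each of the 8 sums (-0.56 to -0.07), and that of *Eef1a1* and *Eef1a2* lay between -0.16 and 0.52. The genes most like *Rpl3l* were *Nudt3* (0.27), *Kcnj11* (0.27), a subunit of the ATP-sensitive potassium channel, and *Psmc5* (0.26), a proteasome ATPase. Those most like *Rpl3* were *Rpl3-ps1* (0.64), *Gm10275* (0.30) and *Rps27* (0.30), and *Rpl3-ps1* shares 1003 of the 75-base stretches of *Rpl3*. Those most like *Eef1a1* were *Rps14* (0.55), *Gm13456* (0.52), which shares 415 stretches with it, and *Rpl13* (0.51). Those most like *Eef1a2* were *Eef2* (0.30), *B3gat3* (0.28) and *Larp4b* (0.27). These are descriptions across cells of shared libraries and depth. The rank correlation of the *Rpl3l* share with the *Eef1a2* share over the cells of a sum lay between -0.57 and 0.14.

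With the count filter, edgeR called no gene of the lists below in any of the 3 comparisons. In cytosolic ribosomal protein genes 79 of 83 were tested for bright against control CMs and 0 were called in either direction. Their median log2 fold change was -0.08, against 0.11 over all genes, and in both bright sums 5 lay above and 21 below both control mice, where 24.3% and 14.8% of all genes did. For dim against control CMs the median over 78 such genes was -0.25, with 1 above and 41 below, where 23.8% and 14.2% of all genes did. For bright against dim CMs it was 0.22 over 80, with 21 above and 1 below, where 15.1% and 16% of all genes did. *Rpl26* had the largest value of this list for bright against control CMs (1.00, SE 0.83), with 14.2 normalized CPM in mouse M26 and 97.2 in mouse M73 against 111 and 110 in bright CMs. *Rps4l* lay at 78.8 and 96.3 in control and at 49.0 and 59.6 in bright CMs (-0.69, SE 0.38).

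Of 40 initiation factor genes all were tested and 0 called, with 20 log2 fold changes above and 20 below 0 and a median of 0.05. *Eif1a* (1.61, SE 1.29) and *Eif2b2* (1.58, SE 1.35) had the largest values, and mouse M73 was low for both, at 0.876 and 0.584 normalized CPM against 10.7 and 12.9 in mouse M26. Of other elongation and termination factors 24 of 26 were tested, 0 called, with a median of 0.24. *Eef1aknmt*, which methylates eEF1A, was at 47.6 normalized CPM in mouse M73 and at 2.20 in mouse M26, 0.681 and 3.00 in bright CMs. *Eef1akmt2*, another eEF1A methyltransferase, was likewise highest in mouse M73 (36.8 against 2.63 in mouse M26, 6.15 and 9.18 in bright CMs). Mitochondrial elongation factors (5 of 5 tested, 0 called) had a median of 0.06, with *Guf1* at -0.58 (SE 0.60) and *Gfm2* at 0.47 (SE 0.63).

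Among regulators of transcripts with a 5′ terminal oligopyrimidine tract, a class to which *Eef1a1*, *Eef2* and most ribosomal protein genes belong, 10 of 10 were tested and 0 called, with a median of 0.10. *Mtor*, the kinase that controls their translation, lay at 21.9 and 3.79 normalized CPM in control and at 26.2 and 28.3 in bright CMs. *Tsc1*, an inhibitor of mTOR signalling, lay at 23.2 and 34.4 in control and at 17.7 and 10.1 in bright CMs. Of 15 other transcripts with such a tract 15 were tested and 0 called, with a median of 0.07. *Pabpc1*, the poly(A) binding protein gene, lay at 77.1 and 95.7 in control and at 157 and 117 in bright CMs (0.67, SE 0.36), and *Hnrnpa1* had the largest value (1.19, SE 0.78). In the immediate-early list 11 of 14 were tested and 0 called, with a median of 1.27. *Atf3* was at 9.29 and 12.3 normalized CPM in control and at 34.5 and 214 in bright CMs (3.54, SE 0.90), and *Junb* at 14.2 and 1.75 against 146 and 7.0 (3.21, SE 1.51).

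Other isoform pairs were read in the same way. Of 20 pairs, 8 had a lower share of the second isoform in bright CMs than in control CMs within both plate series, 2 a higher one, and 10 went either way or had no difference. *Cox7a1*, the heart and muscle isoform of a cytochrome c oxidase subunit, held 64.8% and 64.3% of its pair with *Cox7a2* in control CMs, 52.8% and 50.6% in dim CMs and 47.4% and 48.6% in bright CMs. *Cox8b* held 68.3% and 79.2% of its pair with *Cox8a* in control and 59.9% and 52.9% in bright CMs. *Hk2*, the insulin-sensitive hexokinase of muscle, held 73.9% and 77.4% of its pair with *Hk1* in control and 52.7% and 62.6% in bright CMs. *Tnni3*, the adult cardiac troponin I, held 99.90% and 99.98% of its pair with *Tnni1* in control and 98.4% and 94.9% in bright CMs.

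In raw counts, the other translation pairs differed by fewer points than the *Rpl3* pair between bright and control CMs within both plate series. For bright CMs of mouse M116 against mouse M73, *Eif4a2* came close, at 39.0 points against -40.3 for *Rpl3l*. For dim CMs of mouse M116 against mouse M73, *Eif4a2* differed by 41.8 points and *Rpl3l* by -26.4 points. Per unshared 75-base stretch, the mean bright minus control difference of *Rpl3l* was -11.0 points, and the other pairs were not rescaled. *Rpl36al* held 7.24% and 4.71% of its pair with *Rpl36a* in control and 3.63% and 4.23% in bright CMs. *Rpl22l1*, *Rpl7l1* and *Rps27l* had shares that overlapped between control and bright CMs. *Eif4a2* held 67.7% of its pair with *Eif4a1* in mouse M26 and 32.6% (of 258 counts) in mouse M73, against 75.1% and 71.6% in bright CMs. *Gspt2*, *Eif5a2*, *Rpl39l* and *Rpl10l* were at most 6.77% of their pairs.

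**Figure D5:**
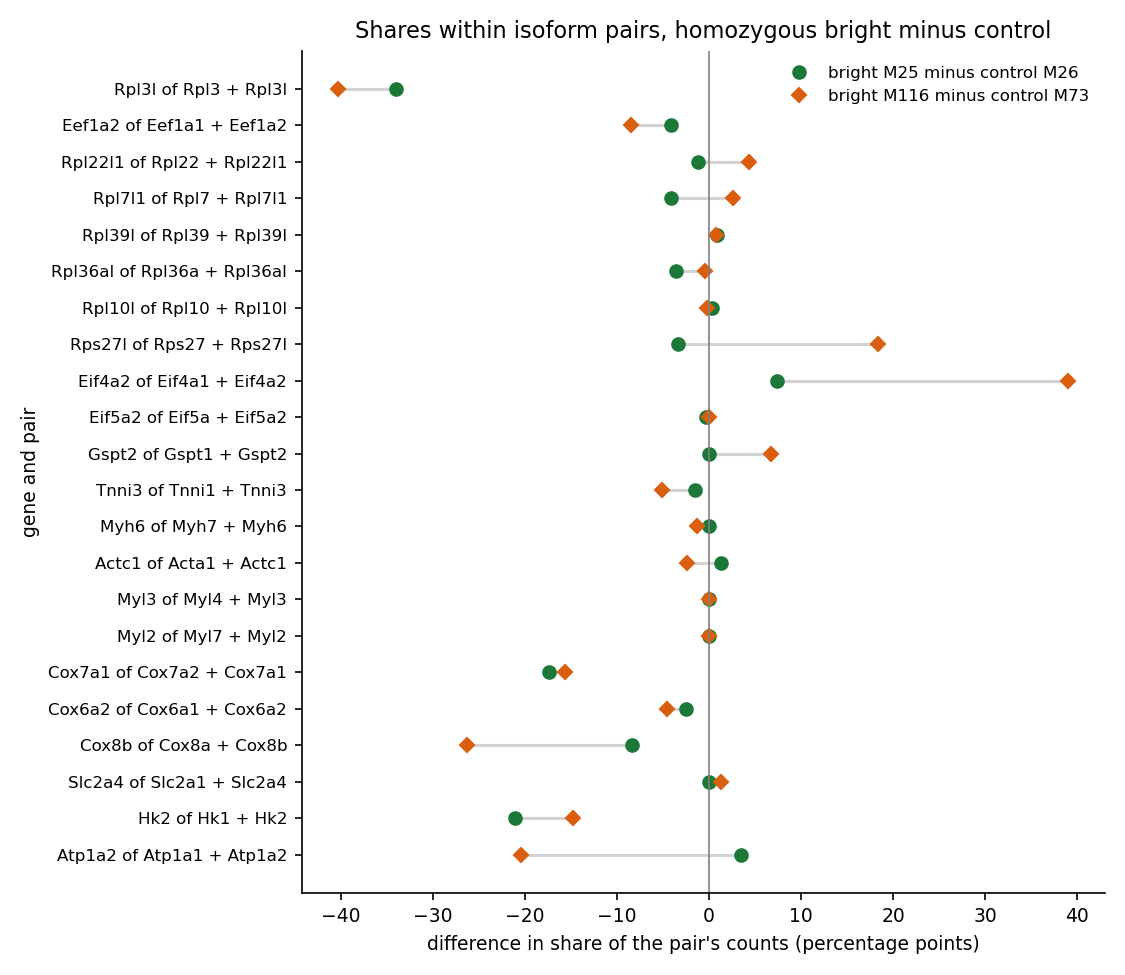
Difference between homozygous bright and control CMs in the share of the second isoform of each pair, in percentage points, within each plate series (circles, mouse M25 minus mouse M26, and diamonds, mouse M116 minus mouse M73). The *Rpl3l* share lies at -34.02 and -40.3 points, *Cox7a1* at -17.4 and -15.7 points, and *Eif4a2* at 7.38 and 39.0 points.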

How the data were processed

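The authors mapped paired reads of 75 bases per cell with STAR 2.7.0f against mouse sequence extended by the human BAG3 and eGFP transcripts, and deposited raw counts per gene from its GeneCounts option. The build, annotation and strand column are not given in the sources used here. The 7 genes, the gene lists and the tests were chosen with earlier results of these data known. From the deposited counts, sums per mouse and brightness class entered edgeR 4.0.16 (R 4.3.3, TMM, filterByExpr, glmQLFTest, Benjamini-Hochberg, threshold 0.05), with 2 mice a group. A standard error is the log2 fold change divided by the square root of F. Shares have exact binomial intervals at 95%, which cover counting error only. A cell held 487 to 1392253 counts (median 711527), and 0 of 234 cells shared their counts with another cell. The labels pair bright with dim CMs, since mice M25 and M116 each gave both. Over 6387 genes, the deviations of the paired sums correlated with r = 0.0916. Other genes are named by rule: the 3 most like each paralog over cells, and from each list those past the threshold or else the 2 with the largest change in bright against control CMs. Alternatives were DESeq2 1.42.0, library size alone, no count filter, cells with at least 1000 genes, cells under 100 CPM of non-myocyte markers, all groups together, a plate series or mouse block, each sum left out, cell medians and means, pseudogenes added and length scaling. Sequences came from GENCODE M21 and RefSeq.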

Additional observations from a re-analysis of the deposited data

Results flagged for a closer look

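In 4 genes and in 1 share, the cells of mouse M72 labelled bright differed from those labelled dim in the opposite direction to the bright and dim CMs of both homozygous mice. The difference between the genotypes was not tested, and in mouse M72 the transgene counts run against the brightness labels (105 CPM of hBAG in cells labelled bright, 251 CPM in cells labelled dim). *Eef1a1* was lower in the cells labelled bright by a log2 difference of -0.33 in normalized CPM and higher in the homozygous mice (0.65 in mouse M25 and 0.05 in mouse M116). *Eef1g* had -0.45 against 0.21 and 0.07, and *Eef2* had -0.28 against 0.07 and 0.01. *Rpl3l* had 0.027 against -0.94 and -1.38, and with scaling by library size alone its value in mouse M72 was -0.09, the same direction as in the homozygous mice. The *Eef1a2* share was 0.966 percentage points higher in the cells labelled bright, against -0.449 and -0.275 points. *Rpl3* had 0.05 against 0.24 and 0.22, and with scaling by library size alone -0.07 against 0.26 and 0.25. With the labels of mouse M72 exchanged, the 5 opposite differences would have the direction of the homozygous mice, whereas *Rpl3* in normalized CPM and the *Rpl3l* share (-0.334 points as labelled, against -10.8 and -13.9 points) would not. No group has more than 2 mice, so no group was examined for a single deviating mouse.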

How the results depend on the processing

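The *Rpl3l* share stayed lower in each comparison under its 16 alternatives, and the *Eef1a2* share stayed lower in homozygous than in control CMs under its 15. Between bright and dim CMs the *Eef1a2* difference ran from -0.716 to 0.0750 points. Differences in the *Rpl3l* share (bright minus control, dim minus control, bright minus dim, in points) were -22.2, -10.9 and -11.3 in cells under 100 CPM of non-myocyte markers, which leaves 3 cells of mouse M73, and -30.1, -20.2 and -9.94 as the mean over cells with at least 20 counts. Bright minus dim was -10.6 as the median over cells with at least 100 counts. The alternatives chosen after seeing the data gave -11.0, -8.28 and -2.72 per unshared 75-base stretch, -33.9 and -10.1 (bright minus control and bright minus dim) without the top cell of each sum, and, with the replicate block, -10.8 in mouse M25 and -13.9 in mouse M116. Within plate series bright minus control was -34.0 (mouse M25 with M26) and -40.3 (mouse M116 with M73). For the *Eef1a2* share, bright minus control and dim minus control were -2.70 and -2.77 in cells under the marker limit, -2.35 and -2.16 as cell medians (20 counts), -2.53 and -2.35 (100 counts), -3.31 and -3.13 per unshared stretch, and -2.66 and -2.32 without the top cell. Leaving out each sum in turn gave -39.2 to -35.1, -26.9 to -22.7 and -13.4 to -11.3 for the *Rpl3l* share and -8.19 to -4.37, -7.83 to -4.01 and -0.716 to -0.00800 for the *Eef1a2* share. The cause of these moves was not tested. The marker limit both leaves few cells and takes out marker-holding ones, and these cannot be told apart here.

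Called genes (bright against control, dim against control, bright against dim) numbered 2, 0 and 0 with edgeR, 106, 55 and 89 with DESeq2, and 163, 58 and 217 without a count filter (*Rpl3l* and *Eef1a1* among the 163). They numbered 5 and 1 (the comparisons with control CMs) with all groups together and 10 and 12 with a plate series block. The replicate block for paired bright and dim CMs called 0 and changed no other call. Leaving out a sum gave 0 to 41, 3 to 827 and 0 to 74. For bright against control CMs these were 0 without control M26, 15 without bright M25 and 41 without bright M116. For dim against control CMs they were 827 without control M26, 3 without control M73, 10 without dim M25 and 8 without dim M116, and for bright against dim CMs 74 without bright M116. A lone sum is then assumed to vary like the other group. The cause was not tested. Of 231 refitted log2 fold changes of the 7 genes, 198 moved by less than the spread between mice, and bright over dim *Eef1a1* turned to -0.05 without dim M25. Mouse M73 had the fewest counts of the pairs, 918 and 1361.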
